A study of Mus musculus with 9 samples.

Results

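The genes described here encode the subunits of the proteasome, the protease that degrades proteins tagged with ubiquitin. All protein-coding mouse genes whose symbol is Psma, Psmb, Psmc or Psmd followed by a number were taken, except Psmb8, Psmb9 and Psmb10, which encode the catalytic subunits of the immunoproteasome. The rule gave 36 of the 56246 genes in the count table, matched by Ensembl identifier, and they lie on 16 chromosomes.

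The 9 RNA libraries were made from the prefrontal cortex of adult male mice of C57BL/6 background, reported as 8 to 12 weeks old and perfused with cold saline. The first group of 3 libraries is labelled WT with no treatment, although the sample titles carry the same "med" tag as the vehicle group. The study's supplement describes these WT mice as injected with medium. The second group of 3 is labelled Rag1-/- and vehicle, and the third group of 3 is labelled Rag1-/- and received extracellular vesicles (EVs) from the blood of WT mice by intravenous injection. Rag1 encodes a recombinase needed for antigen receptor assembly, so Rag1-/- mice have no mature T or B cells, and the deletion is in the germline and not restricted to the brain. The labels do not say that each library is a separate mouse, although the study's figure legend for these data gives 3 mice per group. The p-values measure the spread between these libraries.

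The proteasome consists of a barrel-shaped core particle and a regulatory particle that caps it. The core particle is made of alpha rings, which gate the entry to the barrel, and beta rings, which carry the catalytic sites. The regulatory particle holds a ring of ATPases, which unfold substrates and thread them into the core, and non-ATPase subunits, which bind and remove ubiquitin and form the base and the lid. In neurons the complex turns over synaptic and other short-lived proteins.

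Reads assigned to genes ranged from 32.05 to 41.23 M per library. Rag1 itself went against the labels as a simple loss of transcript: it had 6.26 to 7.82 CPM (reads per M assigned reads, after scaling between libraries) in the 6 libraries labelled Rag1-/- and 0.232 to 1.09 CPM in the 3 labelled WT. The count covers the whole gene and does not show which part of the allele the reads came from, so group names below are the labels. The share of reads outside exons was 6.54% to 6.90% in the libraries labelled vehicle, 7.73% to 11.2% in those labelled EV, and 8.11%, 10.9% and 30.1% in those labelled WT, the highest in WT replicate 6. The 8 neuron markers summed to 6384 to 6694 CPM in the vehicle libraries, 4811 to 5417 CPM in the EV libraries and 4031 to 5738 CPM in the WT libraries, so the vehicle group lay above both others. The 7 astrocyte markers summed to 6687 to 7564 CPM, 9209 to 9542 CPM and 9861 to 11560 CPM in the same order, so the vehicle group lay below both others. The 6 meningeal fibroblast markers summed to 433 to 566 CPM, 695 to 1203 CPM and 225 to 443 CPM. The vehicle group thus lay apart from both others in the neuron sums, the astrocyte sums and the share outside exons. Between EV and WT the neuron sums and the shares outside exons overlapped and the astrocyte and meningeal sums did not, and between vehicle and WT the meningeal sums overlapped. The part of these values in the results was not tested. In bulk tissue, fewer cells of a type and less RNA per cell cannot be told apart.

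Proteasome transcripts were abundant and even across libraries. Of the 36 genes, 33 had a mean above 10 CPM, from 16.9 CPM for Psmd9 to 191 CPM for Psmd2, with a median of 56.7 CPM. The highest library exceeded the lowest by 1.19-fold for Psmc5 to 1.80-fold for Psmd3, with a median of 1.42-fold. Per kilobase of exon, Psmc5, an ATPase of the regulatory particle, had the highest mean level with 78.1 CPM per kb. It was followed by Psma6 of the alpha ring with 49.4, Psmd2 with 47.3, Psmb4 of the beta ring with 46.7 and Psmc1 with 46.7 CPM per kb. The ranges over 9 libraries of these last 4 overlapped, whereas the lowest library of Psmc5, with 71.9 CPM per kb, lay above the highest of the others, 59.0 CPM per kb for Psma6. The lowest of the 33 were the assembly chaperones Psmd5 and Psmd9, with 5.43 and 2.33 CPM per kb, which help to build the base of the regulatory particle and are not part of the finished complex.

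The remaining 3 genes were near the limit of counting. Psma8, an alpha subunit that takes the place of Psma7 in the testis, had 4 to 23 reads per library. Psmb11, the catalytic subunit of the thymus proteasome, had 2, 3 and 0 reads in the WT libraries, 5, 8 and 4 in the vehicle libraries and 2, 6 and 4 in the EV libraries, and did not pass the filter on low counts. Psmd10, an assembly chaperone on the X chromosome also called gankyrin, had 0 reads in all 9 libraries. A count of 0 allows up to 3 reads per library, which is 0.088 CPM in EV replicate 2, for counting error only, and whether the 0 reflects expression or counting was not tested. The filter thus left 34 of the 36 genes for the tests. Psma8 was among them only through the EV libraries, where it was highest, since the same filter on the vehicle and WT libraries alone left 33 genes without it.

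**Figure D1:**
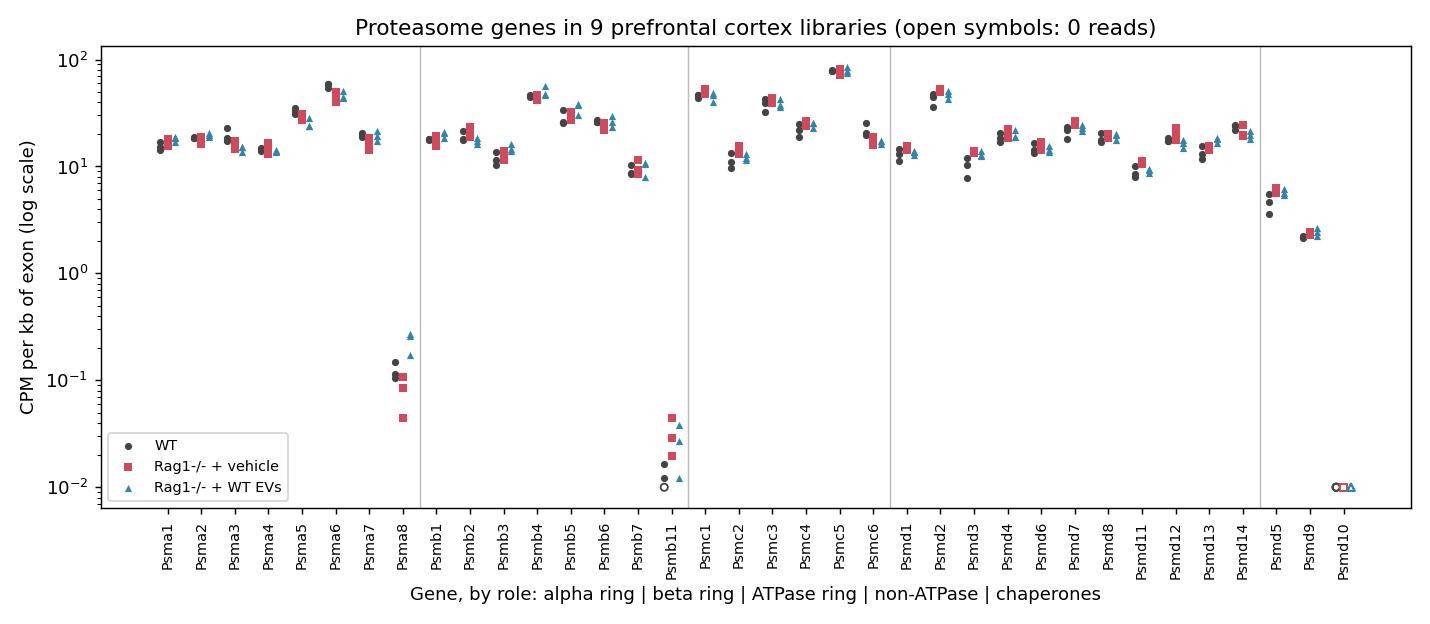
Level of each of the 36 proteasome genes in 9 libraries, in CPM per kb of exon on a log axis, with genes ordered by role and 1 symbol per library. The 33 genes with a mean above 10 CPM lie between 2.16 and 85.3 CPM per kb, Psma8 and Psmb11 lie below 0.3 CPM per kb, and the open symbols mark 0 reads, as in all libraries for Psmd10.

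Several of these genes share sequence with other genes, which matters because reads that matched several places or several genes were not counted, and the counting ignored strand although the library kit keeps it. A stretch of 685 bases of Psma3 is identical to the processed pseudogene Gm13835, 952 bases of Psma5 match Gm8394 at 98.6% identity, 796 bases of Psmb5 match Gm3375 at 98.9% and 674 bases of Psmd11 match Gm14048 at 98.5%. The levels of these 4 genes are therefore uncertain. Psmd9 shares 25.5% of its exonic length with the antisense gene Gm26745, Psmb7 11.8% with Nek6 and Psmd13 10.1% with Sirt3, and reads there could not be assigned. Psma6, Psmc6, Psmd12 and Psmb2, which recur below, had neither a near-identical copy nor an exonic overlap, and Psmd3 overlapped Gm12356 over 0.342% of its exons.

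Promoter sequences were compared because proteasome genes are known to be induced together through antioxidant response elements bound by the transcription factor encoded by Nfe2l1. The RefSeq promoter table (GRCm38.p6, 250 bases before to 50 bases after the start) held 29 of the 36 genes. The core of the antioxidant response element, TGACNNNGC on either strand, was present in 5 of the 29, or 17.2%, against 12.4% of all 32851 promoters in the table. These 5 were Psmb5, Psmb6, Psmc6, Psmd9 and Psmd12. A CCAAT box was present in 12 of 29, or 41.4%, against 37.4% of all promoters. A GC box, GGGCGG on either strand, was present in 18 of 29, or 62.1%, against 35.7% of all promoters. Psma6, Psmc6 and Psmd3 passed the test between vehicle and WT, but Psmd3 was not among the 29. Psmd12 had the lowest p of the abundant subunits between EV and vehicle. For these reasons the windows of Psma6, Psmc6 and Psmd12 are shown. They run from 5′ to 3′ on the gene's strand, with matches to the motifs in capitals. In Psma6 (chr12:55383972-55384271, plus strand) the capitals mark CCAAT boxes, the first reading on the opposite strand. In Psmc6 (chr14:45329574-45329873, plus strand) and Psmd12 (chr11:107479278-107479577, plus strand) the first capitals mark the antioxidant response element core on the opposite strand, and the other capitals mark GC boxes.
Psma6: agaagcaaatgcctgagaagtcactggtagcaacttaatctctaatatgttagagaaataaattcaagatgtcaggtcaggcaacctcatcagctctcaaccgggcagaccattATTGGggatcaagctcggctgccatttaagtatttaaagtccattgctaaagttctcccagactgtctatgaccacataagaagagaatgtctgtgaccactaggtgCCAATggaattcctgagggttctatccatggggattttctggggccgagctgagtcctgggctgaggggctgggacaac
Psmc6: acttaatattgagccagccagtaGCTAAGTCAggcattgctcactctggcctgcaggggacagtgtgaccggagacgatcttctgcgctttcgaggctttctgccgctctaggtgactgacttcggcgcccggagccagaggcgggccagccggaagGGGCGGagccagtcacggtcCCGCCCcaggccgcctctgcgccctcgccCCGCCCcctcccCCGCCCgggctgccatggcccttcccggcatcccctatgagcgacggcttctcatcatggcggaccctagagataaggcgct
Psmd12: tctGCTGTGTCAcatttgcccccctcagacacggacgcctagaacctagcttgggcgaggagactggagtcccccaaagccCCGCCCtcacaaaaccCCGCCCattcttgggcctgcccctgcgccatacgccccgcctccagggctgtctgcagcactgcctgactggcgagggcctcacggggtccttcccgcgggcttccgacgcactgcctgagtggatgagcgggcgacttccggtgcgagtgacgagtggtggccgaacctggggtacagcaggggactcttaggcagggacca
The antioxidant response element core began 227 bases before the start in Psmc6 and 247 bases before it in Psmd12. In Psmb6, Psmd9 and Psmb5 it began 9, 31 and 47 bases before the start. A match describes letters only, and binding was not measured.

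The first comparison asked how the cortex labelled Rag1-/- and vehicle differs from that labelled WT. Most proteasome genes were close in level between the groups, and 3 of the 34 tested passed the threshold. Psmd3, a lid subunit of the regulatory particle, was higher in the vehicle libraries, whereas Psma6, an alpha ring subunit, and Psmc6, an ATPase, were lower. In edgeR, 6.28% of all 17948 genes tested were called higher and 9.71% lower, so 1 higher and 2 lower among 34 is no larger than the background. Before adjustment, 11 of the 34 had p below 0.05 in edgeR, of which 6 were higher and 5 lower, against 6461 of all 17948 genes. The median log2 fold change was 0.0912 over the 34 genes and -0.0306 over all genes tested, with 22 genes above 0 and 12 below. For 27 of the 34 the 95% interval lay within a 1.5-fold change in either direction, compared with 41.9% of all genes tested. The median standard error was 0.105 over the 34 genes and 0.155 over all genes, so the shares are not at like precision. The groups did not overlap in CPM for 13 of the 34, of which 7 were higher and 6 lower, and the share over all genes was 38.1%.

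Psma6 (chromosome 12, 55384222 to 55418454, GRCm38) had 72.4, 67.1 and 72.8 CPM in the WT libraries, 49.5, 53.4 and 61.5 CPM in the vehicle libraries and 62.5, 54.2 and 55.3 CPM in the EV libraries. The WT libraries lay above all 6 others, and the vehicle and EV libraries overlapped. The level was 70.8 ± 3.21 CPM (SD, n = 3) in WT and 54.8 ± 6.16 CPM (SD, n = 3) in vehicle, a log2 fold change of -0.37 with a standard error of 0.0985 and an adjusted p of 0.0341 in edgeR.

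Psmc6 (chromosome 14, 45329788 to 45349705) had 71.4, 68.8 and 89.6 CPM in the WT libraries, 57.6, 55.9 and 65.8 CPM in the vehicle libraries and 61.1, 60.2 and 57.0 CPM in the EV libraries. Again the WT libraries were the highest, with WT replicate 6 apart from the other two. The log2 fold change of vehicle against WT was -0.36 with a standard error of 0.1101 and an adjusted p of 0.0489 in edgeR.

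Psmd3 (chromosome 11, 98682554 to 98695979) had 50.8, 60.1 and 38.6 CPM in the WT libraries, 66.6, 69.2 and 67.0 CPM in the vehicle libraries and 69.3, 62.7 and 63.8 CPM in the EV libraries. All WT libraries were lower than the 6 others, and WT replicate 6, the library with the most reads outside exons, was the lowest. The log2 fold change was 0.44 with a standard error of 0.133 and an adjusted p of 0.0466 in edgeR.

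These 3 calls were sensitive to the libraries in the fit. Leaving out any 1 library other than WT replicate 3 left none of the 34 called, and edgeR on the 6 libraries compared called none of 33 and none of 17041 genes in all. Leaving out WT replicate 3 raised the number to 11, of which 9 were higher and Psma6 and Psmc6 were lower. The share of all genes called in the fits leaving out 1 library was not set beside these counts. The counts are therefore not read as particular to the proteasome genes. Offsets for GC content and transcript length gave a log2 fold change of 0.0543 for Psma6 and 0.46 for Psmc6, whereas Psmd3 stayed above 0 in all 21 alternatives. Over these alternatives the adjusted p in edgeR, limma or DESeq2 ranged from 0.0198 to 0.797 for Psma6, 0.0203 to 0.515 for Psmc6 and 0.0039 to 0.504 for Psmd3. The same offsets moved the median of all genes by 0.117 to 0.0868. Relative to the median of all genes, Psma6 was at -0.0324 with the offsets and -0.34 without them, and Psmc6 was at 0.37 and -0.33.

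**Figure D2:**
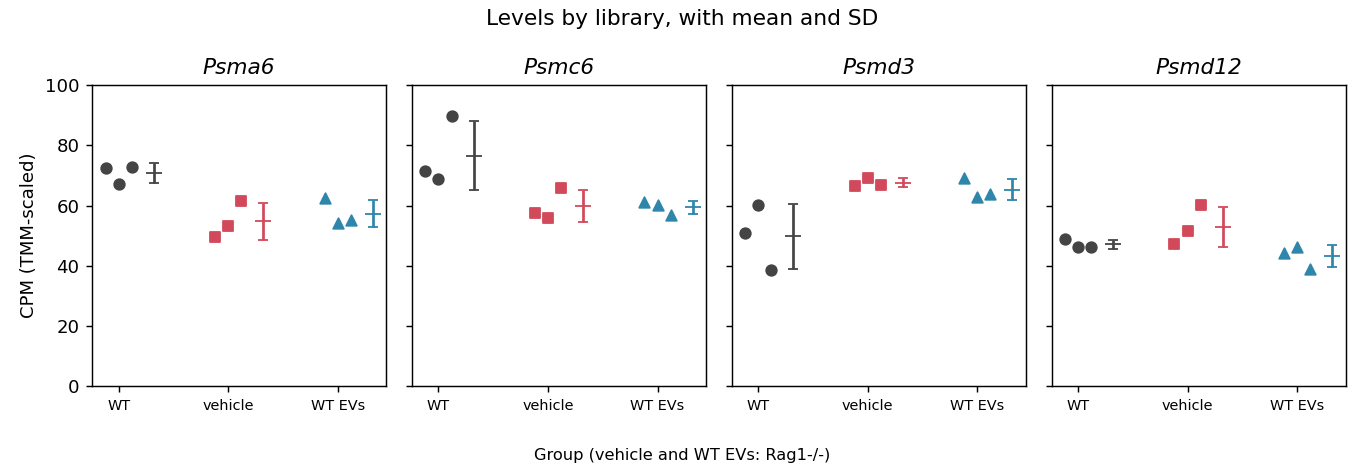
CPM of Psma6, Psmc6, Psmd3 and Psmd12 in each library by labelled group, with the mean and SD of 3 libraries beside the points. The WT libraries of Psma6 (67.1 to 72.8 CPM) lie above and those of Psmd3 (38.6 to 60.1 CPM) below all other libraries, and the Psmd12 libraries labelled EV (39.1 to 46.4 CPM) lie below those labelled vehicle (47.1 to 60.1 CPM).

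By role, the medians of the core and regulatory genes lay on different sides of 0 in this comparison. The median over all genes tested in the same fit was itself below 0, at -0.0306. The median log2 fold change of vehicle against WT was -0.0721 over the 15 core particle genes tested, of which 9 were below 0, and 0.15 over the 19 genes of the regulatory particle and its chaperones, of which 16 were above 0. Without Psma8, which the filter kept only through the EV libraries, the core median was -0.0615 over 14 genes, with 6 above 0 and 8 below. Within the core, the median was -0.24 over the 8 alpha ring genes, Psma8 included, and 0.0505 over the 7 beta ring genes tested. Within the regulatory particle, it was 0.12 over the 6 ATPases, 0.17 over the 11 non-ATPase subunits and 0.24 over the 2 chaperones tested. The core median lay below the regulatory median in all 21 alternatives, by 0.107 to 0.287 on the log2 scale. The regulatory median was above 0 in all 21, and the core median was below 0 in 16 of them. The core median was 0.17 with the GC and length offsets, 0.0498 with the replicate block plus offsets, 0.00017 with no filter, 0.0054 without vehicle replicate 1 and 0.0037 without vehicle replicate 2.

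Several alpha ring genes had lower values in the vehicle libraries without passing the threshold. Psma3 had 67.3, 72.6 and 90.1 CPM in WT and 57.2, 57.4 and 66.8 CPM in vehicle, with a log2 fold change of -0.34 and an adjusted p of 0.0628 in edgeR. Psma7 had 57.7, 60.3 and 62.8 CPM in WT and 44.1, 50.6 and 56.4 CPM in vehicle, with -0.26 and an adjusted p of 0.109 in edgeR. In both genes, and in Psma5, each vehicle library was below each WT library, whereas Psma1, Psma2, Psma4 and Psma8 overlapped between the groups. Over all genes tested, the groups did not overlap for 38.1%, so this is not read as particular to the alpha ring.

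The catalytic subunits of the beta ring showed no difference that passed the test. Psmb5, which carries the chymotrypsin-like site, had a log2 fold change of 0.0505 with a 95% interval of -0.24 to 0.35. Psmb6, with the caspase-like site, had -0.13 (-0.35 to 0.09), and Psmb7, with the trypsin-like site, had 0.09 (-0.23 to 0.41). All 7 beta ring genes tested had intervals within a 1.5-fold change.

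Among regulatory genes, the next in order of p were higher in the vehicle libraries, none past the threshold. Psmd11, a lid subunit, had 54.8, 65.0 and 50.4 CPM in WT and 67.6, 67.9 and 71.6 CPM in vehicle, with a log2 fold change of 0.28 and an adjusted p of 0.0659 in edgeR. Psmd5, an assembly chaperone, had 33.5, 39.7 and 26.0 CPM in WT and 40.4, 43.5 and 45.3 CPM in vehicle, with 0.38 and an adjusted p of 0.0669 in edgeR. Psmd7, another lid subunit, had 49.4, 52.4 and 41.0 CPM in WT and 54.9, 58.4 and 60.2 CPM in vehicle, with 0.28 and an adjusted p of 0.0740 in edgeR. In each of these the groups did not overlap, as for 38.1% of all genes, and WT replicate 6 was the lowest library. Psmd2, a scaffold subunit with the highest CPM of the set, had a log2 fold change of 0.27 and an adjusted p of 0.106 in edgeR. The ubiquitin receptor Psmd4 had 0.15 (95% interval -0.09 to 0.39) and the deubiquitinase Psmd14 had -0.14 (-0.37 to 0.09). Psmc3, which lies 10.6 Mb from Rag1 on the same chromosome, had 0.11 (-0.13 to 0.35).

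**Figure D3:**
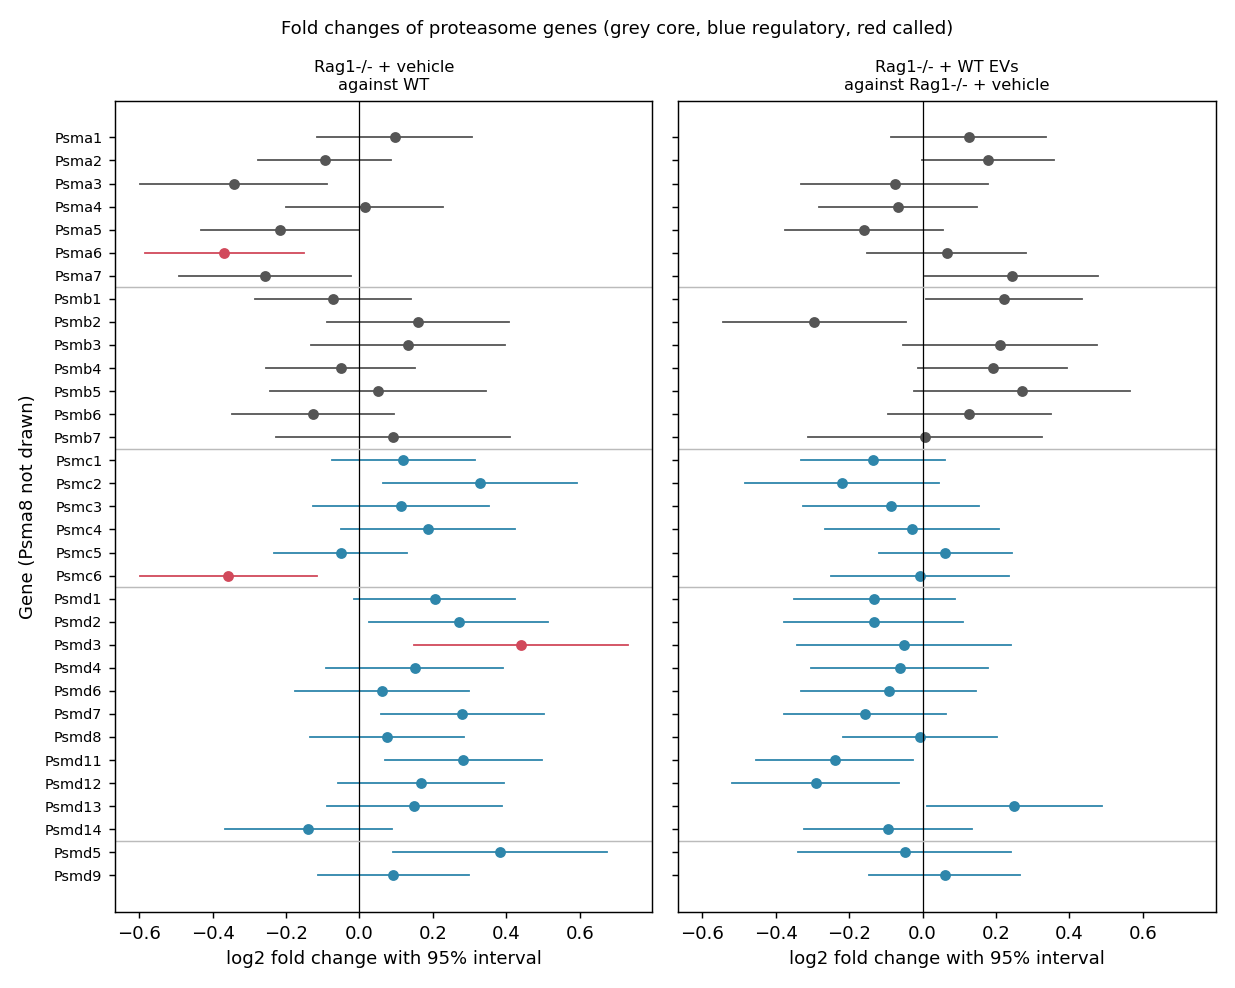
Log2 fold change with its 95% interval from edgeR for 33 proteasome genes, by role from the alpha ring at the top to the chaperones at the bottom, for vehicle against WT on the left and EV against vehicle on the right. Psma6, Psmc6 and Psmd3, drawn in red, passed the threshold on the left and no gene did on the right, and both panels share the vehicle libraries.

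The second comparison asked what differed between the libraries labelled EV and vehicle, both Rag1-/-. None of the 34 proteasome genes passed the threshold in edgeR with all 9 libraries, where 2.17% of all genes were called higher and 1.24% lower. Before adjustment 7 had p below 0.05 in edgeR, of which 4 were higher and 3 lower, against 4143 of all 17948 genes. The 4 include Psma8, kept only through the EV libraries. DESeq2 on the same libraries called 1 gene, Psmd12, lower. With only the 6 libraries compared, edgeR called 4 genes: Psmd13 higher, Psmb2 and Psmd11 lower, and Psma8, which the filter kept only through the EV libraries, higher. DESeq2 on those 6 also called 4, all lower: Psmb2, Psmc2, Psmd11 and Psmd12. In those fits 19.8% and 22.6% of all genes were called, and limma-voom called none of the 34. The median log2 fold change was -0.0389 over the 34 genes and 0.0437 over all genes tested. The 95% interval lay within a 1.5-fold change for 33 of the 34, the exception being Psma8, compared with 47.0% of all genes. Median standard errors were 0.106 over the 34 genes and 0.155 over all genes, so precision differed here too. The groups did not overlap for 6 of the 34, with 2 higher (Psmd13 and Psma8) and 4 lower, where the share over all genes was 37%.

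Psmd12, a lid subunit on chromosome 11 (107479484 to 107504362), had 47.1, 51.6 and 60.1 CPM in the vehicle libraries, 44.3, 46.4 and 39.1 CPM in the EV libraries and 48.8, 46.2 and 46.3 CPM in the WT libraries. The EV libraries were all below the vehicle libraries, though EV replicate 3 and vehicle replicate 1 differed little. The log2 fold change was -0.29 with a standard error of 0.103 and an adjusted p of 0.126 in edgeR. Psmb2, a non-catalytic beta subunit, had 22.8, 25.6 and 28.4 CPM in vehicle and 21.03, 22.1 and 19.5 CPM in EV, with -0.29, a standard error of 0.113 and an adjusted p of 0.153 in edgeR. Psmd11 had 67.6, 67.9 and 71.6 CPM in vehicle and 60.3, 59.5 and 55.7 CPM in EV, with -0.24 and an adjusted p of 0.174 in edgeR. Psmd13, a lid subunit, went the other way, with 47.7, 50.4 and 52.8 CPM in vehicle and 61.1, 55.6 and 62.8 CPM in EV, a log2 fold change of 0.25 and an adjusted p of 0.198 in edgeR. In each of these 4 genes the groups did not overlap, as for 37% of all genes, at differences under 1.5-fold.

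Psma8 had few reads, and its values are a description, because it passed the filter only through the EV libraries, where it was high. It had 4, 10 and 9 reads in the vehicle libraries, 23, 14 and 20 in the EV libraries and 9, 14 and 11 in the WT libraries. The EV libraries did not overlap the vehicle libraries, and EV replicate 3 and WT replicate 3 had the same number of reads. The fitted log2 fold change was 1.56 with a 95% interval of 0.50 to 2.62, and its calls in fits without WT replicate 6 or with the 6 libraries alone carry no weight for the same reason.

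The median log2 fold change of EV against vehicle was 0.13 over the 15 core genes, of which 11 were above 0, and -0.0863 over the 19 regulatory genes, of which 16 were below 0. In the core it was 0.0955 over the alpha ring, Psma8 included, and 0.19 over the beta ring. In the regulatory particle it was -0.0575 over the ATPases and -0.0947 over the non-ATPase subunits. The core median lay above the regulatory median in all 21 alternatives, by 0.0917 to 0.263, although with the GC and length offsets both were below 0, at -0.0613 and -0.21, as they were with the replicate block plus offsets, at -0.103 and -0.19. Without Psma8 the core median was 0.13 over 14 genes, of which 10 were above 0. These values and those of vehicle against WT share the vehicle libraries, so they are not independent of each other.

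The sums by library show the same in levels. The core genes summed to 620, 661 and 746 CPM in the vehicle libraries, 773, 673 and 736 CPM in the EV libraries and 710, 742 and 733 CPM in the WT libraries, with overlap between all groups. The genes of the regulatory particle and its chaperones summed to 1325, 1366 and 1477 CPM in vehicle, 1394, 1292 and 1248 CPM in EV and 1254, 1370 and 1146 CPM in WT, again overlapping. The ratio of core to regulatory CPM was 0.468, 0.484 and 0.505 in vehicle, 0.555, 0.521 and 0.590 in EV and 0.567, 0.541 and 0.639 in WT. The 3 vehicle libraries thus had the lowest ratios of the 9, while EV and WT overlapped. The ratio also went with the share of reads outside exons, though not in every library. The 6 libraries with the largest share had the 6 highest ratios in the same order. They ran from WT replicate 6 with 30.1% to EV replicate 3 with 7.73%. The 3 vehicle libraries had the smallest shares, but not in the order of their ratios. Vehicle replicate 3 had the smallest share, 6.54%, and the highest vehicle ratio, 0.505. With that share as a covariate, the medians of core and regulatory genes for vehicle against WT were -0.0926 and 0.0147, and for EV against vehicle 0.15 and -0.0295. The vehicle shares lay below those of both other groups, so the covariate cannot fully separate this share from the vehicle label. The part of this share in the ratio was not otherwise tested. The regulatory genes had a median exonic length of 3057 bases and the core genes 2370 bases, at a median GC content of 49.7% and 49.1%.

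**Figure D4:**
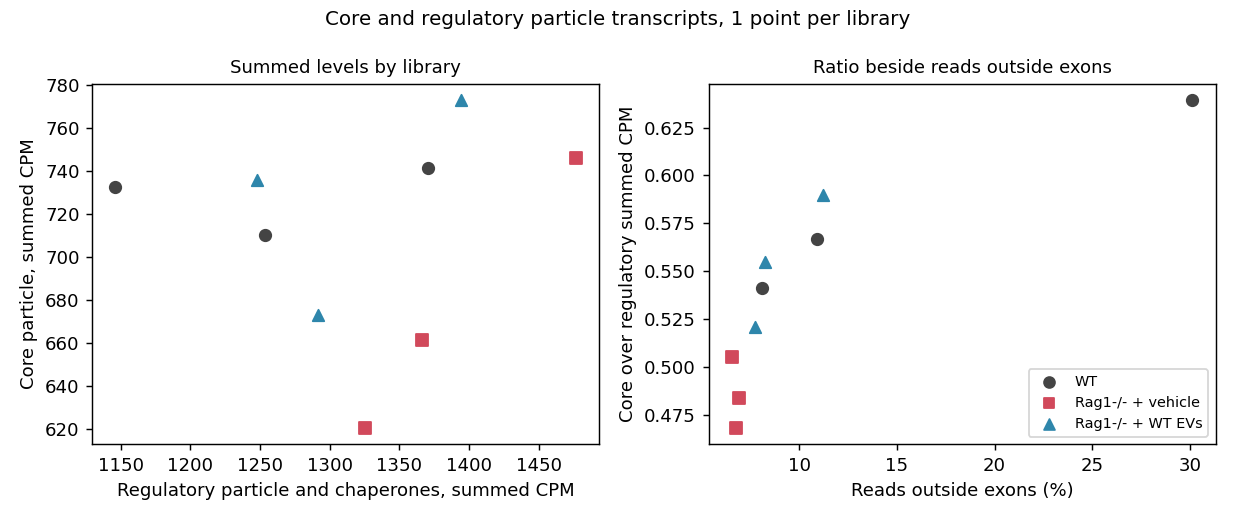
Left, summed CPM of the core genes against that of the regulatory genes, with 1 point per library. Right, the ratio of the sums against the share of reads outside exons in percent, with the vehicle libraries at 0.468 to 0.505 and WT replicate 6 at 0.639; neither axis starts at 0.

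The third comparison set the libraries labelled EV against those labelled WT. No proteasome gene passed the threshold in edgeR, where 0.039% of all genes were called higher and 0.00557% lower, that is 8 genes in all. Before adjustment 11 of the 34 had p below 0.05 in edgeR, of which 6 were higher and 5 lower, against 2944 of all 17948 genes. DESeq2 on all 9 libraries called 1 gene, Psma3, lower, DESeq2 on the 6 libraries and limma-voom called none, and leaving out WT replicate 3 gave 7 calls. The share of all genes called in these other fits was not set beside the counts. The median log2 fold change was 0.0781 over the 34 genes and -0.0130 over all genes, and the core and regulatory medians were 0.0824 and 0.0738. Without Psma8, which the filter kept only through the EV libraries, the core median was 0.041 over 14 genes, with 7 above 0 and 7 below. The groups did not overlap for 10 of the 34, with 5 higher, Psma8 among them, and 5 lower, and the share over all genes was 16.5%.

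The lowest p values in this comparison belonged to Psma5, Psmd13 and Psma3. Psma5 of the alpha ring had 46.2, 41.4 and 43.7 CPM in WT and 37.8, 31.8 and 31.5 CPM in EV, with a log2 fold change of -0.38, a standard error of 0.0980 and an adjusted p of 0.184 in edgeR. Psmd13 had 44.0, 52.7 and 39.3 CPM in WT and 61.1, 55.6 and 62.8 CPM in EV, with 0.40, a standard error of 0.109 and an adjusted p of 0.193 in edgeR. Psma3 had 67.3, 72.6 and 90.1 CPM in WT and 59.6, 53.1 and 59.4 CPM in EV, with -0.42, a standard error of 0.116 and an adjusted p of 0.197 in edgeR. The groups did not overlap in any of the 3, as for 16.5% of all genes. WT replicate 6 was the highest library of Psma3 and the lowest of Psmd13. The genes called between vehicle and WT had -0.30 for Psma6, -0.37 for Psmc6 and 0.39 for Psmd3 between EV and WT, with adjusted p of 0.225, 0.214 and 0.233 in edgeR. Between EV and vehicle, these 3 genes had 0.065, -0.0084 and -0.05. The first 2 sets of values share the WT libraries and the last shares a group with each.

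Genes that work with the proteasome were examined by the same test. Of 40 such genes tested, 3 were called higher and 4 lower in vehicle than in WT, against 6.28% higher and 9.71% lower of all genes. None of these 7 calls held with edgeR on the 6 libraries compared, which called none of 17041 genes. Of the immunoproteasome subunits, Psmb10 was abundant with 24.9 CPM in WT and 21.9 CPM in vehicle, a log2 fold change of -0.18 and an adjusted p of 0.167 in edgeR, whereas Psmb8 and Psmb9 stayed near 1 CPM and none of the 3 was called in any comparison. Of the 5 activators and inhibitors of the core, Psme2, a subunit of the interferon-inducible activator, was lower in vehicle than in WT, at 11.2 and 14.5 CPM, with a log2 fold change of -0.37 and an adjusted p of 0.0315 in edgeR. None of the 5 core assembly chaperones was called. Of 7 further subunits and partners none was called, and Usp14, a deubiquitinase bound to the proteasome, had 0.41 with an adjusted p of 0.0639 in edgeR for vehicle against WT.

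Of 10 ubiquitin shuttle and unfoldase genes, 3 were called higher and 2 lower in vehicle than in WT with all 9 libraries in the fit. Over all genes, 6.28% were called higher and 9.71% lower in that fit. None of the 10 was called with the 6 libraries compared. Vcp, the unfoldase that extracts ubiquitinated proteins from complexes, had 160 CPM in vehicle and 109 CPM in WT, a log2 fold change of 0.55 and an adjusted p of 0.0377 in edgeR. The shuttle genes Ubqln2 and Rad23b were also higher, with 0.47 and 0.43 and adjusted p of 0.0412 and 0.0356 in edgeR. Ubqln4, another shuttle of the same family, was lower with -0.36 and an adjusted p of 0.0319 in edgeR, and Ddi1 was called lower at a mean under 1 CPM in both groups, although its libraries overlapped between them. Of 6 genes for ubiquitin and its activating enzymes, Rps27a, which encodes ubiquitin fused to a ribosomal protein, was lower, with 82.8 CPM in vehicle and 148 CPM in WT, -0.84 and an adjusted p of 0.0198 in edgeR. This call too was lost with the 6 libraries compared. Copies of these genes elsewhere in the genome were not examined.

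Between EV and vehicle, 1 of these 40 genes was called, against 2.17% higher and 1.24% lower of all genes. Ddi2, the protease that activates the Nfe2l1 factor, had 51.7 CPM in EV and 68.9 CPM in vehicle, with a log2 fold change of -0.42, a standard error of 0.0917 and an adjusted p of 0.0390 in edgeR. Nfe2l1 itself had 344 and 370 CPM, with -0.11 and an adjusted p of 0.482 in edgeR. None of these genes was called between EV and WT.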

How the data were processed

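RNA of prefrontal cortex was made into paired-end libraries with a kit that keeps strand. Per the labels and the study's methods, the authors aligned reads to GRCm38 with STAR 2.7.5c and counted reads per gene over exons, without strand and with a minimum alignment quality of 10, in HTSeq (0.11.1 in the submitters' processing notes, another version in the methods). The deposited values are raw counts of reads per gene in 9 libraries, with no normalization. Reads outside exons, ambiguous and multiply aligned reads were kept out of library sizes; reads outside exons made up 6.54% to 30.1% and ambiguous reads 3.10% to 4.31%.

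Groups were taken from the labels. The members and gene lists were chosen with earlier results of these data known. Gene identifiers were matched to GENCODE M21 (98.2% of 56246), and copies were found with blastn 2.17.0 (at least 98% identity over 75 bases). Genes were filtered with filterByExpr (minimum count 10, total 15), scaled by TMM and tested with the two-sided quasi-likelihood test of edgeR 4.0.16 in R 4.3.3 on all 9 libraries, with Benjamini-Hochberg adjustment over 17948 genes and a threshold of 0.05. CPM are TMM-scaled. Intervals are 95% intervals of the fit, and a count of 0 was read as up to 3 reads. By the rule for naming, values in every library are given for up to 6 members per direction that passed, and otherwise for the 3 with the lowest p in a comparison. Further members and partners were named after their values were seen. The test was tried on simulated counts. Alternatives were DESeq2 1.42.0, limma-voom (limma 3.58.1), other scaling factors and filters, the libraries compared alone, a replicate block, GC and length offsets, the share of reads outside exons as covariate, and leaving out each library. The core and regulatory medians under the alternatives, and the core median without Psma8, were added after seeing the data. Each pair of libraries within a group differed by more than sampling noise. Replicate numbers are shared by some libraries, but the correlation of same-numbered deviations ranged from -0.15 to 0.16, so the numbers were not taken as pairs. Protein sequences were not used here.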

Additional observations from a re-analysis of the deposited data

How the results depend on the processing

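For vehicle against WT, where 3 proteasome genes were called, DESeq2 on all 9 libraries called 7, no filter 5 and limma-voom 1, and the count was 0 with edgeR on the 6 libraries compared, with the GC and length offsets, with the outside-exon share as covariate, with the replicate block and with the replicate block plus offsets. Leaving out 1 library gave 0 to 11, the 11 without WT replicate 3 and 0 without any other. Counts of calls in this section are given without the share of all genes called in the same fit. They are therefore not read as particular to these genes. The median log2 fold change of 0.0912 was 0.29 with the offsets and -0.0224 with the covariate, and 0.0307 to 0.206 leaving out 1 library. With the offsets Psma6 had 0.0543, above 0 but -0.0324 relative to the median of all genes. Psmc6 reversed to 0.46 with the offsets and 0.26 with the replicate block plus offsets, which are 0.37 and 0.20 relative to that median. The cause was not tested.

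For EV against vehicle, where none was called, DESeq2 called 1 on 9 and 4 on 6 libraries, edgeR on 6 libraries 4, the replicate block plus offsets 1 (Psmb2) and the covariate 1 (Psmd13), and leaving out 1 library gave 0 to 1, with Psma8, kept by the filter only through the EV libraries, called without WT replicate 6. The median of -0.0389 was -0.17 with the offsets, -0.14 with the replicate block plus offsets, and -0.102 to -0.00897 leaving out 1 library. For EV against WT, DESeq2 on 9 libraries called 1 (Psma3) and no filter 1 (Psmd13), and leaving out 1 library gave 0 to 7, the 7 without WT replicate 3. The median of 0.0781 was -0.0393 with the replicate block and 0.0168 to 0.174 leaving out 1 library. With the offsets the median of all genes moved by 0.117 for vehicle against WT and by -0.103 for EV against vehicle. The replicate block rests on a number that libraries share and not on a stated pairing, and same-numbered libraries did not deviate together in every pair.

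With 3 libraries a group, the 95% interval lay within a 1.5-fold change for 27, 33 and 25 of the 34 genes in the 3 comparisons, and smaller differences within it are not resolved. Psma8 and Psmb11 rest on at most 23 reads.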
